A study of Arabidopsis thaliana with 6 samples.

Results

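The genes described here belong to families that build, acetylate or loosen the polysaccharides of the Arabidopsis cell wall: expansins (EXPA, EXPB, EXLA and EXLB), TRICHOME BIREFRINGENCE-LIKE proteins (TBL) and cellulose synthase-like enzymes (CSL), with 1 galacturonosyltransferase (GAUT). They were chosen by name, as every probe set to which the platform gene table gives a single gene with a symbol of these families, or of CESA, at its start. That gave 48 genes. EXPA1 and EXPA3, which the table does not name, were added because the study lists them as changed on these same arrays, so 50 genes were followed, each by 1 probe set, out of 22746 probe sets tested. The table names no CESA probe set, and XTH genes were left out. The RefSeq gene table (TAIR10.1) holds 121 genes with symbols of these families, so members not followed here, among them 7 CESA genes, were not analysed here.

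The primary wall of a growing leaf cell is a network of cellulose microfibrils tied together by hemicelluloses and embedded in pectin. Expansins loosen this network without cutting its polymers, which lets turgor extend the wall. TBL proteins transfer acetyl groups to wall polysaccharides, CSLA enzymes make mannans, CSLC enzymes make the glucan backbone of xyloglucan, and GAUT enzymes are named for the synthesis of pectic homogalacturonan. The comparison asks whether transcripts of these families differ between mutant and wild-type young leaves.

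Transcript levels were measured on 6 Affymetrix ATH1 arrays, 3 labelled bzip63-2 and 3 of the wild type Ws (Wassilewskija). The bzip63-2 plants carry the T-DNA insertion FLAG_610A08 (line H3-2) in bZIP63 and were the only mutant line on the arrays. Both genotypes were 25 d old, were grown at 22°C with 10 h of light and 14 h of dark, and were sampled as the night ended. Each array held RNA of the 4 youngest leaves pooled from 5 plants; the methods add the shoot apical meristem, which the labels do not name. In such a pool, fewer cells of a type and less RNA per cell cannot be told apart.

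The deposited values are log2 values made with RMA (robust multi-array average), and all arrays shared 1 lowest value, 2.47, which is called the floor below. Array medians lay between 2.61 and 2.62, and correlations between arrays between 0.990 and 0.996. The probe set of bZIP63 itself was at 8.55 to 8.78 in the arrays labelled bzip63-2 and at 5.32 to 5.91 in Ws, so the targeted transcript was higher under the mutant label, and the position of the probe set along the gene, before or after the T-DNA, was not determined. Directions below therefore rest on the labels. RCA, the Rubisco activase of green leaves and the only leaf marker of the 6 listed with a named probe set, was at 11.58 to 11.82 in bzip63-2 and 11.52 to 11.71 in Ws. CLV3, the only meristem marker of the 5 listed with a named probe set, was at the floor on all arrays. PYK10, a beta-glucosidase best known from roots and the only root marker of 4 with a named probe set, was at 4.53 to 4.95 in bzip63-2 and 3.25 to 3.84 in Ws, and its part in the results below was not tested.

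Most of these wall genes gave little signal in these leaf samples. Of the 50 genes, 16 stayed within 0.05 of the floor on all 6 arrays, and 10 of these had exactly the same value throughout. A further 19 left that range on at least 1 array but had a mean of 3 or less, and 15 had a mean log2 value above 3. These shares resembled those of all probe sets, of which 32.5% stayed at the floor and 36.2% had a mean above 3, against 32% and 30% of the 50 genes. A gene at the floor was not detectably above the lowest value of the array, which does not show that it was not transcribed.

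**Figure D1:**
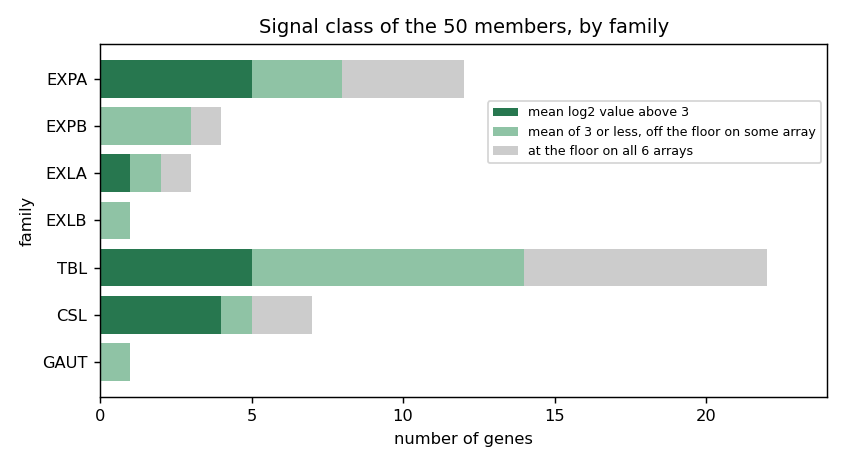
Number of genes of each family (horizontal axis) by signal class: mean log2 value above 3, mean of 3 or less but off the floor on at least 1 array, or within 0.05 of the floor on all 6 arrays. TBL has 22 genes, of which 8 stayed at the floor, and EXPA has 12, of which 4 stayed there.

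Among alpha-expansins, EXPA7 and EXPA18, known from root hairs, were at the floor on every array, as were EXPA21 and EXPA24. EXPA1, EXPA3, EXPA4, EXPA8 and EXPA15 had means above 3. No beta-expansin passed a mean of 3, and EXPB5 stayed at the floor. The expansin-like genes EXLA1 and EXLA3 lie next to each other on chromosome 3, yet EXLA1 gave signal on all arrays and EXLA3 on none. The neighbours TBL19 and TBL21 on chromosome 5 were both at the floor, whereas of the chromosome 2 neighbours TBL28 and TBL30 only TBL30 was.

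No member passed an adjusted p under 0.05 in either direction (limma, Benjamini-Hochberg over all 22746 probe sets); the background share called by this rule was 0%. At an unadjusted p under 0.05 from limma, 2 of the 50 genes were higher (EXPA3 and TBL18) and 1 was lower (TBL37). That is 6% of the members, against 6.37% of all probe sets (4.33% higher and 2.04% lower) and 5.34% of those the platform table gives a single gene. Without EXPA1, EXPA3 and EXLA2, which the study listed on these arrays, TBL18 and TBL37 remained among 47 genes. For 5 members (2 higher, 3 lower) all bzip63-2 arrays lay on 1 side of all Ws arrays, which is 10% of the members, against 10% of all probe sets (6.81% higher and 3.23% lower) and 8.5% of those with a single gene. A share this near the background is not a result about the families. All of these genes were among the 15 with a mean above 3, where 14.5% of all such probe sets had an unadjusted p under 0.05 and 21.1% did not overlap, against 3 and 5 of the 15 genes. The 15 include EXPA1 and EXPA3, chosen on these arrays, and EXPA3 is in both counts. Of the 13 that the platform table names, 1 was higher and 1 lower at that p, and 1 higher and 3 lower did not overlap. The median log2 difference was -0.0057 over the 50 genes and 0 over all probe sets, with 29 members below 0, 11 above and 10 tied. Of all 22746 probe sets, 9610 lay below 0 and 9471 above. With a mean above 3, 10 members lay below 0 and 5 above, beside 3219 and 5007 of 8242 probe sets. The counts over the 50 genes include genes at the floor on all arrays, such as TBL30 with -0.0027. Members are not replicates, and their direction as a group was not tested. For 1 gene, an exact permutation test over these 6 arrays has 0.1 as its smallest p. All p-values measure only the spread between these arrays.

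**Figure D2:**
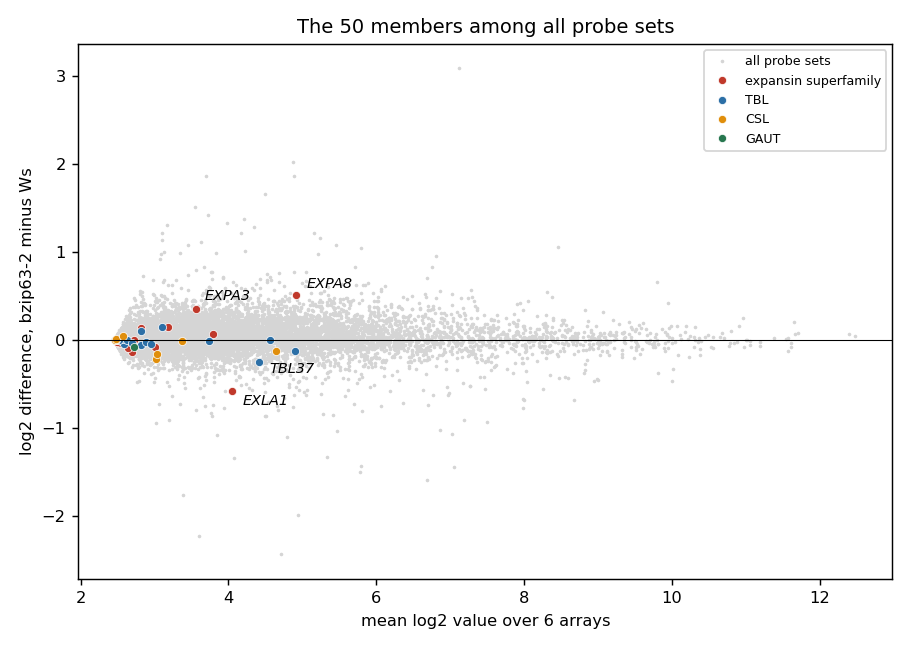
Log2 difference, bzip63-2 minus Ws (vertical axis), against the mean log2 value over 6 arrays (horizontal axis) for all 22746 probe sets (grey) and the 50 members (colours by family). The members run from -0.58 for EXLA1 to 0.50 for EXPA8, and other probe sets lie farther out in both directions.

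EXPA3, an alpha-expansin, had the lowest p of the 50 genes. Its log2 values were 3.85, 3.63 and 3.72 in the arrays labelled bzip63-2, against 3.30, 3.40 and 3.46 in Ws. Every bzip63-2 array lay above every Ws array. The log2 difference was 0.34 (standard error 0.08), a 1.27-fold difference, with adjusted p = 0.48 from limma. The gene was followed because the study had found it changed on these arrays, so its direction is a description and no independent evidence.

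EXPA1, an alpha-expansin known from leaves and guard cells, was chosen in the same way. It had log2 values of 3.79, 3.77 and 3.93 in bzip63-2 and of 3.76, 3.77 and 3.76 in Ws. Replicates 1 and 3 of bzip63-2 lay above all Ws arrays, replicate 1 only just, and replicate 2 tied with the highest Ws array. From limma, EXPA1 had unadjusted p = 0.23 and adjusted p = 0.74, beside the study's cutoff of a P-value under 0.05. The log2 difference was 0.07, with a 95% interval from -0.06 to 0.19. It was 0.017 without bzip63-2 replicate 3, 0.094 without bzip63-2 replicate 2 and 0.0099 with quantile normalization repeated.

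EXPA8 was the alpha-expansin with the largest difference. Its log2 values were 5.06, 4.77 and 5.65 in bzip63-2, against 4.76, 4.41 and 4.80 in Ws. The groups overlapped, since bzip63-2 replicate 2 lay below Ws replicate 3, and the SD within bzip63-2 was 0.45 (n = 3 arrays). The log2 difference of 0.50 had a 95% interval from -0.23 to 1.23 and adjusted p = 0.74 from limma. It was 0.26 without bzip63-2 replicate 3, the highest array.

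For EXPA15 and EXPA4, a single Ws array stood apart. EXPA15 was at 3.22, 3.19 and 3.35 in bzip63-2 and at 2.98, 3.35 and 2.98 in Ws, and EXPA4 was at 2.94, 3.03 and 2.94 in bzip63-2 and at 2.95, 3.25 and 2.95 in Ws. In both genes the high Ws array was replicate 2. Leaving it out changed the log2 difference of EXPA15 to 0.27, against 0.15 over all arrays, and that of EXPA4 to 0.02, against -0.08. The EXPA15 difference was 0.09 without Ws replicate 1, 0.09 without Ws replicate 3 and 0.10 without bzip63-2 replicate 3. Ws replicate 2 was the highest Ws array for 7 of the 14 expansin superfamily genes that left the floor, and Ws replicate 3 for 6. EXPA9 and EXPB2, counted among the 7, left the floor on Ws replicate 2 only, which fixed their place in this count. The same held for EXPA20, counted among the 6, on Ws replicate 3. Over all 34 members that left the floor, Ws replicate 2 was highest for 32.4%, against 31% of all such probe sets. Ws replicate 3 was highest for 47.1%, against 34.8%, and Ws replicate 1 for 20.6%, against 26.2%.

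Expansin-like A proteins share the domains of expansins, but wall loosening has not been their established activity. EXLA1 had log2 values of 3.44, 4.27 and 3.57 in bzip63-2, against 4.40, 4.18 and 4.44 in Ws. Replicates 1 and 3 of bzip63-2 lay below all Ws arrays, whereas replicate 2 lay among them. The log2 difference was -0.58, a bzip63-2 over Ws ratio of 0.67, with a 95% interval from -1.27 to 0.11 and adjusted p = 0.74 from limma. Without bzip63-2 replicate 2 the log2 difference was -0.84 (adjusted p = 0.41 from limma).

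EXLA2, which the study lists as changed on these arrays at a P-value under 0.05, stayed near the floor (unadjusted p = 0.28 from limma). It was at 2.60, 2.64 and 2.64 in bzip63-2 and at 2.64, 2.65 and 3.004 in Ws, so that Ws replicate 3 alone carried the difference of -0.14. Without that array the log2 difference was -0.02, and without Ws replicate 1 it was -0.20. EXLB1, the expansin-like B gene, was at 2.59, 2.58 and 2.60 in bzip63-2 and at 2.67, 2.80 and 2.60 in Ws. Its log2 difference of -0.10 was -0.04 without Ws replicate 2 and -0.14 without Ws replicate 3. EXPB3 was the beta-expansin with the highest mean of its 4 members, at 2.75, 2.92 and 2.996 in bzip63-2 and 2.83, 2.69 and 2.76 in Ws, with overlapping groups and a log2 difference of 0.13 (95% interval -0.08 to 0.34). That difference was 0.07 without bzip63-2 replicate 3 and 0.20 without bzip63-2 replicate 1.

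**Figure D3:**
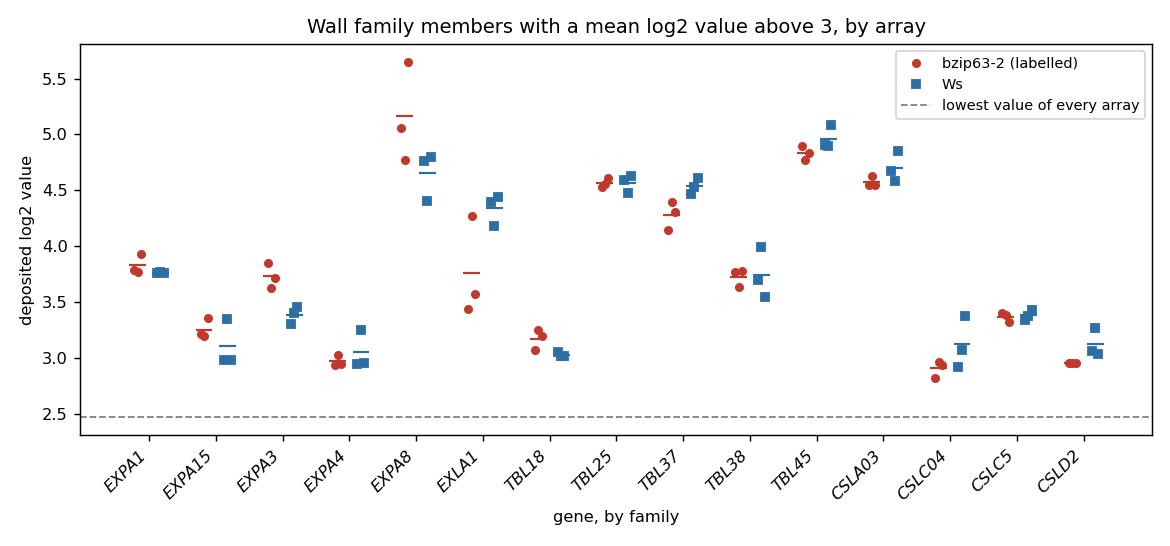
Deposited log2 value (vertical axis) of the 15 genes with a mean above 3 in each array labelled bzip63-2 (circles) and each Ws array (squares), in replicate order within a genotype, with the mean of 3 arrays as a line and the lowest value of every array dashed. EXPA3 and TBL18 lie higher in all bzip63-2 arrays; TBL37, TBL45 and CSLD2 lie lower in all of them.

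TBL was the largest family, with 22 genes. It includes 3 mannan acetyltransferases (TBL23, TBL25 and TBL26) and 5 xylan acetyltransferases (TBL28, TBL30, TBL32, TBL34 and TBL35). TBL37 had log2 values of 4.14, 4.39 and 4.31 in bzip63-2, against 4.47, 4.53 and 4.61 in Ws. All bzip63-2 arrays lay below all Ws arrays. The log2 difference was -0.26 (standard error 0.08), with adjusted p = 0.66 from limma.

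TBL45 also separated the genotypes, at 4.89, 4.77 and 4.83 in bzip63-2, against 4.91, 4.90 and 5.08 in Ws. The gap between the groups was small, and the log2 difference of -0.13 had a 95% interval from -0.31 to 0.05. That difference was -0.07 without Ws replicate 3 and -0.16 without Ws replicate 2. TBL18 was at 3.07, 3.25 and 3.20 in bzip63-2, against 3.06, 3.02 and 3.02 in Ws. It was the TBL gene with the largest positive difference, 0.14 (standard error 0.05), with adjusted p = 0.74 from limma, and its lowest bzip63-2 array lay just above its highest Ws array.

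TBL25, a mannan acetyltransferase, was at 4.53, 4.56 and 4.61 in bzip63-2 and at 4.60, 4.48 and 4.63 in Ws. Its log2 difference was -0.001, with a 95% interval from -0.13 to 0.13, and it lay between -0.05 and 0.03 with 1 array left out. Of the other mannan acetyltransferases, TBL26 was at the floor on all arrays and TBL23 had a mean below 3. None of the 5 xylan acetyltransferases reached a mean of 3, and their log2 differences lay between -0.02 and 0.09. The TBL32 probe set has a design that may detect more than 1 gene. TBL38 was at 3.77, 3.64 and 3.77 in bzip63-2 and at 3.70, 4.00 and 3.55 in Ws, with a spread within Ws (SD 0.23, n = 3 arrays) far above the log2 difference of -0.02.

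**Figure D4:**
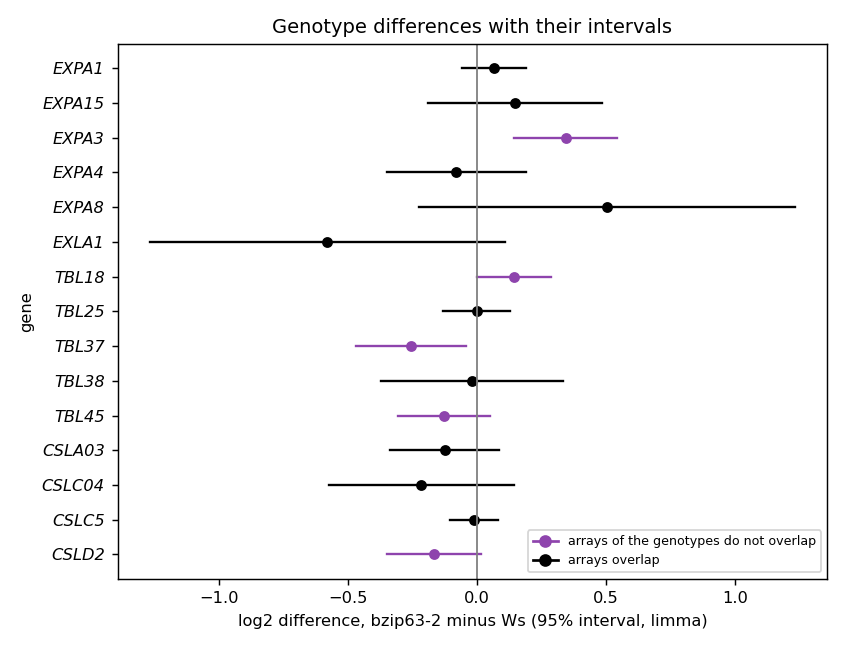
Log2 difference, bzip63-2 minus Ws (horizontal axis), with its 95% interval from limma, for the 15 genes with a mean above 3. Purple marks the 5 genes whose arrays do not overlap between genotypes; the intervals of EXPA8 and EXLA1 alone reach a 2-fold difference.

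Of the 7 CSL genes, CSLA03, a member of the mannan synthase subfamily, was at 4.55, 4.63 and 4.55 in bzip63-2, against 4.67, 4.58 and 4.85 in Ws. The groups overlapped, with a log2 difference of -0.13 (95% interval -0.34 to 0.08). That difference was -0.05 without Ws replicate 3 and -0.18 without Ws replicate 2. CSLA01, of the same subfamily, was at the floor on all arrays. Of the xyloglucan glucan synthases, CSLC04 was at 2.82, 2.96 and 2.94 in bzip63-2 and at 2.92, 3.07 and 3.38 in Ws. Its log2 difference of -0.22 (95% interval -0.58 to 0.14) was -0.09 without Ws replicate 3 and -0.32 without Ws replicate 1. CSLC5 was at 3.40, 3.38 and 3.32 in bzip63-2 and at 3.34, 3.38 and 3.43 in Ws, a log2 difference of -0.01 (95% interval -0.11 to 0.08). CSLC6 had a mean below 3 and CSLC12 stayed at the floor.

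CSLD2, a cellulose synthase-like gene known from root hairs and tip growth, was at 2.957, 2.955 and 2.955 in bzip63-2, against 3.06, 3.26 and 3.04 in Ws. The SD within bzip63-2, 0.0012 (n = 3 arrays), was nearly that of a tied value at low signal, so the separation says little about transcript. The bzip63-2 arrays lay below the Ws arrays, with a log2 difference of -0.17 (standard error 0.07) and adjusted p = 0.74 from limma. Without Ws replicate 2, the highest array, the difference was -0.10, and without Ws replicate 3 it was -0.21. GAUT15 was at 2.67, 2.66 and 2.72 in bzip63-2 and at 2.86, 2.67 and 2.76 in Ws, with overlapping groups and a log2 difference of -0.08, which was -0.03 without Ws replicate 1 and -0.13 without Ws replicate 2.

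How far these data limit a change differed between genes. Of the 15 genes with a mean above 3, the 95% intervals of 13 lay between -0.58 and 0.54 on the log2 scale. A 2-fold difference in the deposited values lay outside these 13 intervals, and only those of EXPA8 and EXLA1 reached it. For EXPA3, EXPA4, EXPA15, TBL18, CSLC04, CSLC5 and CSLD2 this says nothing about a 2-fold fall in bzip63-2. Their Ws means were 3.03 to 3.39, less than 1 log2 unit above the floor of 2.47, so no such fall could have appeared. Values near the floor are compressed, so intervals of dimmer genes say little about transcript. The 19 genes that left the floor but had a mean of 3 or less, among them EXPA9, EXPA16, EXPA20, EXPB1 and EXPB2, had no single value above 3.18, and their log2 differences lay between -0.14 and 0.13. Of all 34 genes that left the floor, 13 had exactly the same value on at least 2 arrays and 4 on at least 4 arrays. TBL23, for example, was at 2.85 on 4 arrays. For such genes the spread between arrays was in part that of a tied value. The other arrays could still differ, and TBL23 had a range of 0.197 over all arrays.

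**Figure D5:**
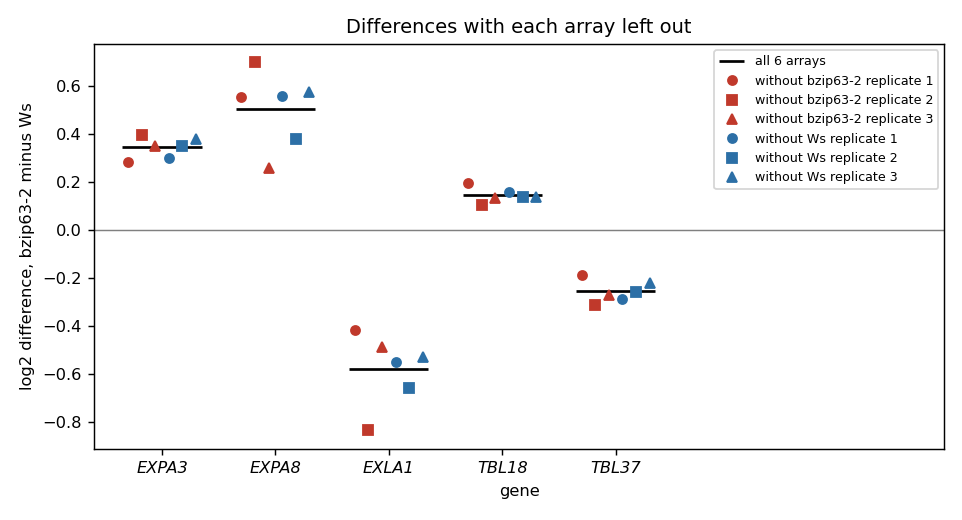
Log2 difference, bzip63-2 minus Ws (vertical axis), of 5 genes over all 6 arrays (line) and with each bzip63-2 array (red) or Ws array (blue) left out in turn. No difference changes sign, which was fixed in advance for EXPA3, TBL18 and TBL37, whose arrays do not overlap between genotypes. EXPA8 ranges from 0.26 to 0.70 and EXLA1 from -0.84 to -0.42.

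With 1 array left out, the log2 difference of EXPA3 lay between 0.28 and 0.40, given as a description since the gene was chosen on these arrays. TBL37 did not keep an unadjusted p under 0.05 from limma without bzip63-2 replicate 3, Ws replicate 2 or Ws replicate 3, with log2 differences of -0.31 to -0.19 over all 6 left-out arrays, and TBL18 kept it only without bzip63-2 replicate 1.

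Of the other genes of wall synthesis and modification that were listed by symbol, 4 had a named probe set. By adjusted p from limma none of the 4 was called, and at an unadjusted p under 0.05 only COB was lower and none was higher, beside 6.37% of all probe sets and 14.5% of those with a mean above 3. COB (COBRA), which orients cellulose deposition in expanding cells, was at 5.80, 5.83 and 5.71 in bzip63-2, against 5.97, 5.89 and 6.03 in Ws. Its arrays did not overlap, and its log2 difference was -0.19 (standard error 0.05) with adjusted p = 0.59 from limma. Without Ws replicate 1 the difference was -0.18, and the unadjusted p from limma no longer lay under 0.05. IRX15, needed for xylan of secondary walls, was at the floor on all arrays, its paralogue IRX15-L on 5, and PME61, a pectin methylesterase, had a log2 difference of -0.08. None of 9 xylem and secondary wall markers had a named probe set.

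A pair of wall synthesis genes are named here only by the study's list of changed genes and were looked at after its values were known. CSLA02, a mannan synthase, was at 4.30, 4.21 and 4.30 in bzip63-2, against 3.65, 3.99 and 4.18 in Ws, and GATL6, a galacturonosyltransferase-like gene, was at 3.14, 2.98 and 3.10 in bzip63-2, against 3.24, 3.42 and 3.56 in Ws. Neither overlapped between genotypes, CSLA02 being higher and GATL6 lower in bzip63-2. Neither passed over all probe sets (limma, adjusted p = 0.74 for CSLA02 and 0.62 for GATL6). Unadjusted p from limma was 0.084 for CSLA02 and 0.022 for GATL6, so only GATL6 lay under 0.05.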

How the data were processed

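The authors hybridised 6 ATH1 arrays, and their deposited log2 values come from RMA (Affymetrix Expression Console), with no version given in the sources used here; the log2 scale was read from the range of the values. The genotype difference was fitted in R 4.3.3 by limma 3.58.1 (lmFit, eBayes) to 22746 probe sets, leaving out 64 controls, with no filter and no replicate block. Each difference is bzip63-2 minus Ws, and p-values were Benjamini-Hochberg adjusted over all probe sets. The platform table gave 13513 probe sets a single gene and 503 several, and RefSeq gave the locus codes. A gene with several probe sets would have been given by the brightest, but each member had 1. EXPA1, EXPA3, CSLA02, GATL6 and bZIP63 were named through the study's list.

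The families, lists and markers were chosen with earlier results of these data known. Named genes were EXPA1, EXPA3, in each family the highest mean and up to 4 members with the largest difference among means above 4, members with an unadjusted p under 0.05, and likewise COB among other wall genes; any other gene was chosen after its values were seen. The fit was tested on simulated data with independent normal noise and no floor, where changes were added only to probe sets with a mean above 4. That test does not bear on dimmer members. Alternatives covered the variance prior, array weights, normalization, dim and control probe sets, ambiguous probe sets, the replicate block, the threshold, the study-listed genes and each array left out. The number of arrays limits the precision, and replicates are separate plant pools per the labels. Figures were drawn with matplotlib 3.10.9.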

Additional observations from a re-analysis of the deposited data

How the results depend on the processing

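No member passed an adjusted p under 0.05 from limma under any alternative run, also at a threshold of 0.1. Over all probe sets, 28 to 108 passed once dim ones were left out, and 0 to 34 with 1 array left out. At a threshold of 0.1, 4 of 22746 passed. Even the bZIP63 probe set, 8.48-fold higher under the mutant label, had adjusted p = 0.11 from limma. The lack of a call is therefore no evidence of equal levels. The members at an unadjusted p under 0.05, 3 over all arrays, numbered 1 to 6 with 1 array left out: 1 without bzip63-2 replicate 3 (beside 5.29% of all probe sets) and 6 without Ws replicate 2 (6.23%). They numbered 4 of 26 without the dimmest 50% (beside 13.8%), 3 of 15 without means of 3 or less (16%) and 3 of 6 without means of 4 or less (18.7%). The last 3 were EXLA1, EXPA8 and TBL37. TBL18 did not keep this p with either other variance prior, array weights or quantile normalization repeated, nor did TBL37 with array weights. Members whose arrays did not overlap, 5 over all arrays, numbered 8 with quantile normalization repeated (2 higher, 6 lower, beside 19.3% of all probe sets), 2 with means of 4 or less left out (6 members fitted, beside 23.9%) and 6 to 12 with 1 array left out (beside 15.2% to 20.3%), where fewer arrays overlap less often by construction. The median log2 difference was -0.0034 with quantile normalization repeated, -0.0332 without the dimmest 50%, -0.0200 without means of 3 or less, -0.1278 without means of 4 or less (over all probe sets 0, 0.0223, 0.0347 and 0.0338 in these 4 settings), and -0.0050 to 0.0000 with 1 array left out; dropping dim genes leaves fewer members. The count of other wall genes at an unadjusted p under 0.05 was 0 to 1 with 1 array left out, and 0 without Ws replicate 1. The sign turned with 1 array left out for TBL25 (-0.046 to 0.0295), TBL38 (-0.12 to 0.10), CSLC5 (-0.0343 to 0.0128) and EXPA4 (-0.133 to 0.0205), and with array weights for TBL38 (0.0023); the cause was not tested. With the replicate block, the count at an unadjusted p under 0.05 was 2 (EXPA3 and TBL37, not TBL18), among the other wall genes PME61 took the place of COB, and no adjusted call changed; same-numbered arrays had correlations of deviations from -0.02 to 0.05, so the numbers gave no sign of pairing. Averaging probe sets changed nothing, since each member had 1. Signal near the floor limits what can be said of the 35 dimmer members, and of a fall in brighter members close to it.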
